A study of Homo sapiens with 9 samples.

Results

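TRAIL, FAS and TNF receptor genes, with the adaptors that act beneath them, were followed in U251 glioblastoma cells in which PTBP1 had been knocked down. The 10 genes were TNFSF10, TNFRSF10A, TNFRSF10B, TNFRSF10D, FAS, TNFRSF1A, TNFRSF21, FADD, CFLAR and RIPK1, taken by symbol from the 22295 entries of the expression table. All 10 were found. 8 of them reached a mean of 0.1 FPKM over the libraries and were tested among 15551 genes, and TNFRSF10A and TNFRSF10D fell below this level.

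U251 is a long-established line of human glioblastoma cells. The sh-Luci-3d cells carried a lentiviral control sh-RNA against luciferase and were taken 3 days post infection. The sh-Ptbp1-3d and sh-Ptbp1-7d cells carried a lentiviral sh-RNA against PTBP1, an RNA-binding protein that controls splicing, and were taken 3 and 7 days post infection. All groups were moved from 2 days post infection to a neuronal induction medium containing forskolin and dorsomorphin. RNA-seq was made of 3 libraries from each group, 9 in all, with 1 sh-RNA against PTBP1 in 1 cell line. No sh-Luci library of 7 days was analysed here, so the knockdown and the additional days, with their longer stay in induction medium, cannot be told apart in either comparison with sh-Ptbp1-7d. These 2 comparisons also share the sh-Ptbp1-7d libraries. The labels do not say that the libraries of a group came from separate cultures, and p-values then measure only the spread between these libraries, which may be technical.

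Death receptors of the TNF receptor superfamily pass the signal of an extracellular ligand to caspases. When TRAIL or FAS ligand binds, the receptor's intracellular death domain recruits the adaptor FADD, which in turn recruits caspase 8, and the inhibitor CFLAR (c-FLIP) competes for the same platform. TNF receptor 1 instead assembles a complex around the kinase RIPK1, in which ubiquitin enzymes set the balance between NF-kB signalling, apoptosis and necroptosis. TRAIL receptors without a working death domain bind the ligand as decoys.

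PTBP1 itself had 110.7, 111.9 and 124.4 FPKM in the libraries of sh-Luci-3d, 66.2, 64.4 and 61.0 FPKM in those of sh-Ptbp1-3d and 49.7, 50.7 and 51.0 FPKM in those of sh-Ptbp1-7d. FPKM values (fragments per kilobase of transcript, relative to the mapped fragments of a library) are scaled by length, so genes are set side by side below. The annotation behind the values is not known, so ranks and ratios between genes hold only as far as each gene was quantified correctly. The values summed to between 367412 and 404922 in a library, and the depth behind them is unknown. Differences are given as log2 fold changes of FPKM + 0.1 with the standard error (SE) from limma and a p adjusted by the Benjamini-Hochberg method. Changes of genes with little expression come out too small on this scale. A gene is said to rise or fall where its adjusted p was below 0.05 (sh-Ptbp1-3d against sh-Luci-3d) or 0.01 (both comparisons with sh-Ptbp1-7d), and a fold change above 2 is named separately. For the comparisons with sh-Ptbp1-7d, shares of all genes are given for rises only. Counts of genes that fell stand there without such a share.

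At 3 days post infection none of the 8 genes tested had risen or fallen in sh-Ptbp1-3d against sh-Luci-3d, where 0.0322% of all genes tested passed the FDR. At an unadjusted p below 0.05 there were 2 of the 8, TNFSF10 and RIPK1, both lower, as were 2.89% of all genes. By 7 days, TNFSF10, TNFRSF10B, FAS and TNFRSF21 had risen more than 2-fold over sh-Ptbp1-3d, and RIPK1 and CFLAR had risen by less. FADD and TNFRSF1A did not pass. The count was thus 6 of 8 higher and 0 lower, where 20.3% of all genes tested were higher by the same FDR. With the fold threshold it was 4 of 8, against 8.31% of all genes. Against sh-Luci-3d the same 6 genes were higher in sh-Ptbp1-7d, where 20.6% of all genes were higher, and 3 of them passed the fold threshold, against 8.93% of all genes.

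**Figure D1:**
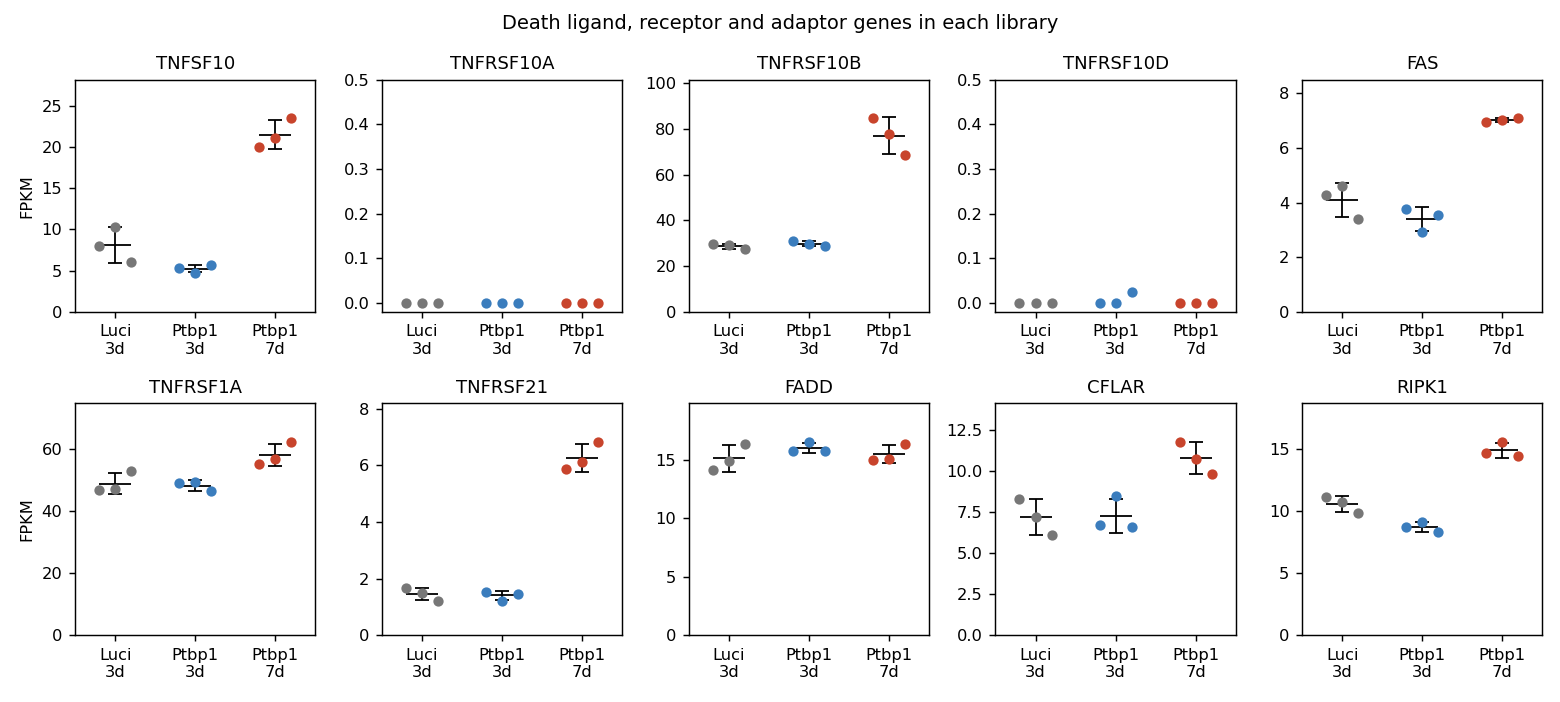
FPKM of the 10 genes (vertical axes, linear, from 0 for genes above 0.1 FPKM) in the 3 libraries of each group (horizontal axis), with 1 point per library and the mean and SD as bars. TNFSF10, TNFRSF10B, FAS, TNFRSF21, CFLAR and RIPK1 were higher in each sh-Ptbp1-7d library than in each library of 3 days, FADD overlapped between the groups, and TNFRSF10A and TNFRSF10D were at or near 0, where no mean or SD is drawn.

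TNFSF10 encodes TRAIL, the only death ligand among the 10 genes. It lies on chromosome 3 from 172505508 to 172523507 on the minus strand (GRCh38, GENCODE v29). It was at 7.97, 10.3 and 5.98 FPKM in sh-Luci-3d, at 5.32, 4.74 and 5.64 FPKM in sh-Ptbp1-3d and at 20.0, 21.1 and 23.5 FPKM in sh-Ptbp1-7d. The 3 groups did not overlap, with the sh-Ptbp1-3d libraries lowest and the sh-Ptbp1-7d libraries highest. From sh-Ptbp1-3d to sh-Ptbp1-7d TNFSF10 rose from 5.23 ± 0.457 to 21.5 ± 1.78 FPKM (SD, n = 3 each), a 4.12-fold difference of the means and a log2 change of 2.02 (SE 0.169, adjusted p = 4.04e-06 in limma). Of all genes tested, 97.7% had a lower log2 fold change. In whole cultures, more RNA per cell and more cells of one state cannot be told apart. Against sh-Luci-3d (8.09 ± 2.18 FPKM, SD, n = 3) the rise was 2.66-fold, a log2 change of 1.43 (SE 0.169, adjusted p = 4.84e-05 in limma).

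The earlier difference of TNFSF10 was of the opposite sign and did not pass. In sh-Ptbp1-3d its log2 fold change against sh-Luci-3d was -0.59 (SE 0.169, adjusted p = 0.480 in limma), with a 95% confidence interval from -0.96 to -0.22. This value moved with the control library left out. Without sh-Luci-3d replicate 3, the control library with the least TNFSF10, the log2 fold change was -0.79 and passed (adjusted p in limma = 0.0114). Without sh-Luci-3d replicate 2, the one with the most, it was -0.40, and without sh-Luci-3d replicate 1 it was -0.58. Neither of these passed. The calls of all genes moved too. Without sh-Luci-3d replicate 3, 1.33% of all genes were lower by the FDR, where 0.0322% passed in either direction with all libraries. The pass of TNFSF10 therefore cannot be read as particular to this gene.

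The sequence before the start of TNFSF10 is shown beside that of TNFRSF21 because these 2 genes had the largest differences of the 10 over sh-Ptbp1-3d, and beside a site near RIPK1 that matches the same pattern as TNFSF10. The sequences are from RefSeq (GRCh38.p14), 5′ to 3′ on the strand of the gene, and 7 of the 10 genes had an entry. Capitals mark the core of the interferon-stimulated response element (ISRE), searched as 2 copies of GAAA with any 2 bases between them on either strand, and bases of annotated exons are left out of the longer sequences. The TNFSF10 match begins 187 bases before the RefSeq start site.
TNFSF10, chr3:172523508-172523680, minus strand: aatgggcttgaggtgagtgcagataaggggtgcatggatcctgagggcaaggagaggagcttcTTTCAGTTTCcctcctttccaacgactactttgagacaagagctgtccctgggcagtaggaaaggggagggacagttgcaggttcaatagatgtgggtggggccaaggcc
TNFRSF21, chr6:47309906-47310155, minus strand: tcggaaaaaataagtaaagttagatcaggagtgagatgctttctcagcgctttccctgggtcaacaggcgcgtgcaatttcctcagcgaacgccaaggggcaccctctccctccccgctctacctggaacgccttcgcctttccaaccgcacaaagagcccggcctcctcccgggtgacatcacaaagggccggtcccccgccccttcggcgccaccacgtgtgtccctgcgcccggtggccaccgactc
RIPK1, chr6:3068301-3068330, plus strand: cgcgcggaggTTTCGGTTTCctcttttacg

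The ISRE core was present in 3.57% of the 35116 windows of 300 bases (250 before and 50 after a start) in the RefSeq table, and among the 7 genes only in the windows of TNFSF10 and RIPK1. In RIPK1 it lay 67 bases before the second of its listed starts, and the window of a further start held the same site. TNFRSF21 held no match, and its window is shown for contrast. A GAS element (TTCNNNGAA, either strand, in 7.66% of windows) was found before none of the 7, and neither was a cAMP response element (TGACGTCA, 1.85%) or a FOXO site (TGTTTAC, 3.42%). An AP-1 site (TGANTCA, in 7.71% of windows) was found in windows of FAS, CFLAR and FADD. The percentages are shares of windows, and RIPK1, FAS and CFLAR each had several windows searched. Counts of genes with a match therefore cannot be set against them. These matches describe letters in short windows, and no binding was measured.

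Of the 3 TRAIL receptors among the 10 genes, TNFRSF10B was the only one measured above 0.1 FPKM. It encodes DR5, which carries a death domain, and lies with its relatives on chromosome 8. It was at 29.5, 29.1 and 27.4 FPKM in sh-Luci-3d, at 30.8, 29.6 and 28.6 FPKM in sh-Ptbp1-3d and at 84.7, 78.0 and 68.5 FPKM in sh-Ptbp1-7d. The groups of 3 days overlapped, and each sh-Ptbp1-7d library was more than 2-fold above each of their libraries. TNFRSF10B rose from 29.7 ± 1.10 to 77.1 ± 8.10 FPKM (SD, n = 3 each) from 3 to 7 days of knockdown, a log2 change of 1.37 (SE 0.087, adjusted p = 5.28e-07 in limma). Against sh-Luci-3d it was 1.42 (SE 0.087, adjusted p = 3.98e-07 in limma). At 3 days the log2 fold change was 0.05 (95% confidence interval -0.14 to 0.24, adjusted p in limma = 0.918).

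TNFRSF10A, which encodes the other TRAIL receptor with a death domain (DR4), was listed at 0 in all 9 libraries. TNFRSF10D, a decoy with a truncated death domain, was listed at 0 in 8 libraries and at 0.0232 FPKM in sh-Ptbp1-3d replicate 3. A listing at 0 does not show that a gene was not transcribed, since FAF1, which is expressed widely, was also at 0 in 6 of the 9 libraries and did not exceed 0.0489 FPKM. The decoy TNFRSF10C, which lacks a death domain, measured 0.404, 0.213 and 0.126 FPKM in sh-Ptbp1-3d and 0.597, 0.979 and 0.911 FPKM in sh-Ptbp1-7d. It rose by 1.47 on the log2 scale (SE 0.312, adjusted p = 0.00262 in limma) from a level under 1 FPKM. Over sh-Luci-3d it did not pass (0.94, adjusted p in limma = 0.0282), and over sh-Ptbp1-3d it no longer passed both thresholds with no filter, at a pseudocount of 1, or without sh-Ptbp1-3d replicate 2, sh-Ptbp1-7d replicate 2 or sh-Ptbp1-7d replicate 3. Per length it remained at 0.011 ± 0.0034 of TNFRSF10B in sh-Ptbp1-7d (SD, n = 3), compared with 0.0082 ± 0.0044 in sh-Ptbp1-3d.

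FAS, the receptor of FAS ligand, lies on chromosome 10 from 88990582 to 89015785 on the plus strand. It was at 4.27, 4.62 and 3.40 FPKM in sh-Luci-3d, at 3.78, 2.91 and 3.53 FPKM in sh-Ptbp1-3d and at 6.96, 7.01 and 7.09 FPKM in sh-Ptbp1-7d. The groups of 3 days overlapped, and the sh-Ptbp1-7d libraries lay above both within a narrow range. FAS rose by 1.03 on the log2 scale over sh-Ptbp1-3d (SE 0.138, adjusted p = 0.000128 in limma) and by 0.77 over sh-Luci-3d (SE 0.138, adjusted p = 0.000874 in limma). The first value is close to the fold threshold, and 4 of 21 alternatives put it below, with 0.87 as the lowest at a pseudocount of 1. One of the 4 left out sh-Ptbp1-3d replicate 2 and gave 0.92. At 3 days the log2 fold change was -0.26 (95% confidence interval -0.56 to 0.05, adjusted p in limma = 0.746). PTBP1 is known as a regulator of FAS exon 6, whose skipping gives a soluble receptor, and gene-level FPKM values do not separate these forms.

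TNFRSF21 encodes DR6, a death domain receptor that has been studied in neurons. It lies on chromosome 6 from 47231532 to 47309905 on the minus strand. It was at 1.66, 1.51 and 1.22 FPKM in sh-Luci-3d, at 1.54, 1.22 and 1.48 FPKM in sh-Ptbp1-3d and at 5.87, 6.12 and 6.82 FPKM in sh-Ptbp1-7d. The groups of 3 days overlapped throughout, and the sh-Ptbp1-7d libraries were more than 3-fold above both. TNFRSF21 had the largest log2 fold change of the 8 genes tested, 2.08 over sh-Ptbp1-3d (SE 0.151, adjusted p = 1.49e-06 in limma) and 2.03 over sh-Luci-3d (SE 0.151, adjusted p = 1.64e-06 in limma). The ratio of its means over sh-Ptbp1-3d was 4.44. Its lead over TNFSF10 in that comparison turned at a pseudocount of 1 (1.59 against 1.85 for TNFSF10), with the correction for GC content and length (1.98 against 2.07) and, at 1.94 for both, under quantile normalization. At 3 days its log2 fold change was -0.04 (95% confidence interval -0.38 to 0.29).

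TNFRSF1A, which encodes TNF receptor 1, was the most abundant of the 10 genes at 3 days. It lies on chromosome 12 from 6328757 to 6342114 on the minus strand. It was at 46.8, 46.9 and 52.7 FPKM in sh-Luci-3d, at 48.8, 49.3 and 46.3 FPKM in sh-Ptbp1-3d and at 55.2, 56.8 and 62.1 FPKM in sh-Ptbp1-7d. The sh-Ptbp1-7d libraries did not overlap with either group of 3 days. Of the 8 genes, 7 were separated from sh-Ptbp1-3d in this way with sh-Ptbp1-7d above (FADD was the exception), which held for 35.3% of all genes tested. Against sh-Luci-3d the same 7 were separated, and 32.8% of all genes. Its log2 fold change was 0.27 over sh-Ptbp1-3d (95% confidence interval 0.09 to 0.44, adjusted p in limma = 0.0159) and 0.25 over sh-Luci-3d (95% confidence interval 0.08 to 0.42, adjusted p in limma = 0.0219), which did not pass. It passed in 5 and 4 of 21 alternatives, with an adjusted p of 0.00345 and 0.00327 without sh-Luci-3d replicate 3.

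FADD, the adaptor shared by the TRAIL and FAS receptors, had the smallest log2 fold change of the 8 genes in both comparisons with sh-Ptbp1-7d. It lies on chromosome 11 from 70203163 to 70207390 on the plus strand. It was at 14.1, 14.9 and 16.4 FPKM in sh-Luci-3d, at 15.8, 16.5 and 15.8 FPKM in sh-Ptbp1-3d and at 15.0, 15.1 and 16.4 FPKM in sh-Ptbp1-7d. The 3 groups overlapped. From 3 to 7 days of knockdown its log2 fold change was -0.05 (95% confidence interval -0.23 to 0.14, adjusted p in limma = 0.649), with a sign that turned under TPM scaling (0.05) and under a correction for GC content and length (0.03). The upper end of this interval lies below the value of each of the 6 genes that rose.

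CFLAR encodes c-FLIP, the inhibitor that resembles caspase 8 and competes with it at FADD. It lies on chromosome 2 from 201116104 to 201176687 on the plus strand. It was at 8.32, 7.19 and 6.11 FPKM in sh-Luci-3d, at 6.74, 8.48 and 6.61 FPKM in sh-Ptbp1-3d and at 11.8, 10.7 and 9.87 FPKM in sh-Ptbp1-7d. The groups of 3 days overlapped and the sh-Ptbp1-7d libraries lay above them. CFLAR rose by 0.57 on the log2 scale over sh-Ptbp1-3d (SE 0.138, adjusted p = 0.00584 in limma) and by 0.58 over sh-Luci-3d (SE 0.138, adjusted p = 0.00494 in limma). This call depended on single libraries and on the model. It passed in 15 of 21 alternatives in the first comparison and 14 of 21 in the second, and the highest adjusted p were 0.0317, without sh-Ptbp1-3d replicate 3, and 0.0240, without sh-Ptbp1-7d replicate 1. It was also lost in both with no filter (0.0234 and 0.0210) and with no trend (0.0133 and 0.0116), and over sh-Luci-3d in a fit of the 6 libraries compared (0.0110). Long and short forms of the protein were not resolved.

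RIPK1, the kinase of the TNF receptor 1 complex, lies on chromosome 6 from 3063991 to 3115187 on the plus strand. It was at 11.1, 10.7 and 9.85 FPKM in sh-Luci-3d, at 8.70, 9.09 and 8.35 FPKM in sh-Ptbp1-3d and at 14.6, 15.5 and 14.4 FPKM in sh-Ptbp1-7d. None of the groups overlapped, in the same order as for TNFSF10. RIPK1 rose by 0.76 on the log2 scale over sh-Ptbp1-3d (SE 0.085, adjusted p = 3.11e-05 in limma) and by 0.49 over sh-Luci-3d (SE 0.085, adjusted p = 0.000662 in limma). The difference at 3 days was -0.27 (95% confidence interval -0.46 to -0.08, adjusted p in limma = 0.557) and passed only without sh-Luci-3d replicate 3 (-0.32, adjusted p in limma = 0.0376). In that fit 1.33% of all genes were lower by the FDR. TNFSF10 and RIPK1 were the 2 of 8 genes whose groups of 3 days did not overlap, with sh-Ptbp1-3d below, which occurred for 4.93% of all genes tested.

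**Figure D2:**
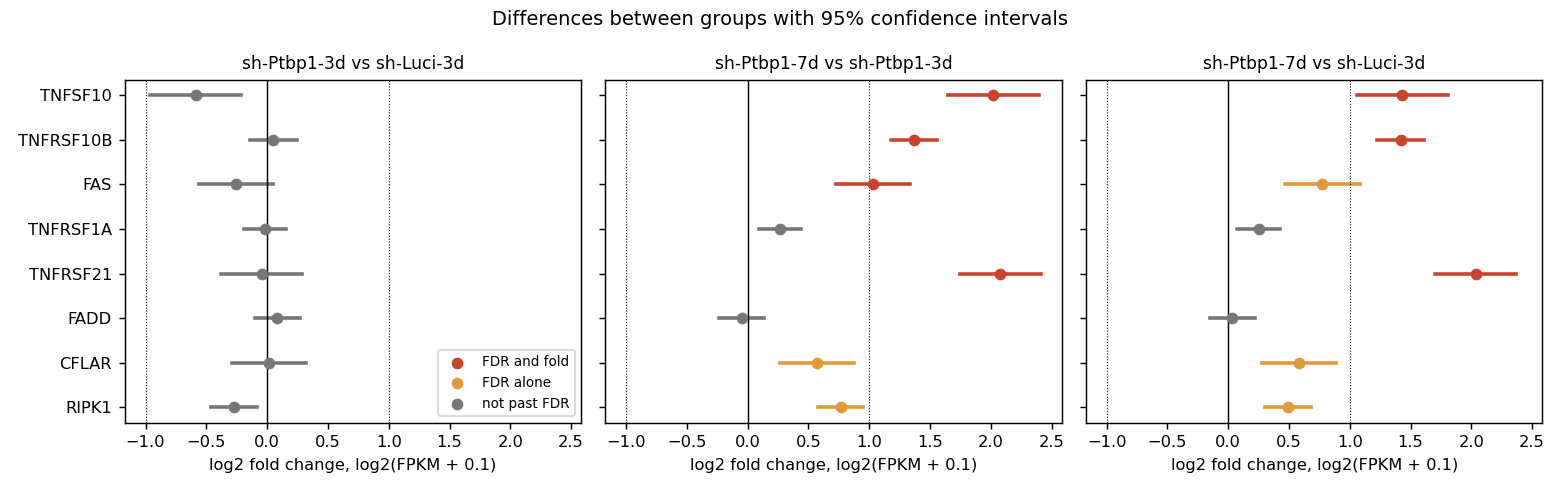
Log2 fold changes of the 8 genes tested (points) with 95% confidence intervals (lines) in the 3 comparisons, on the scale log2(FPKM + 0.1), with dotted lines at a fold change of 2. At 3 days the values ran from -0.59 (TNFSF10) to 0.08 (FADD) and none passed the FDR, and in both comparisons with sh-Ptbp1-7d TNFRSF21 had the highest value and FADD the lowest.

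The median log2 fold change of the 8 genes was -0.03 at 3 days, 0.90 for sh-Ptbp1-7d over sh-Ptbp1-3d and 0.68 over sh-Luci-3d, compared with 0.01, 0.09 and 0.10 for all genes tested. Scaling to TPM moved the median of all genes to 0.20 and 0.18 in the latter 2 comparisons, and each of the 6 rises was larger than this shift. On the TPM scale TNFSF10 stood at 2.13, TNFRSF21 at 2.23 and TNFRSF10B at 1.47 over sh-Ptbp1-3d.

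The order of the levels changed between the groups. In both groups of 3 days TNFRSF1A was first, followed by TNFRSF10B, FADD and RIPK1, and TNFRSF21 was the lowest of the 8 genes above 0.1 FPKM. Below RIPK1 the neighbours were not all separated by their libraries: RIPK1 overlapped with TNFSF10, and TNFSF10 with CFLAR, in sh-Luci-3d, and RIPK1 overlapped with CFLAR in sh-Ptbp1-3d. In sh-Ptbp1-7d TNFRSF10B was first, followed by TNFRSF1A and TNFSF10, ahead of FADD and RIPK1, which overlapped with each other. CFLAR, FAS and TNFRSF21 followed, each apart from the next.

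This change of order was also seen within single libraries. The ratio of TNFRSF10B to TNFRSF1A, in FPKM, was 0.591 ± 0.060 in sh-Luci-3d, 0.617 ± 0.015 in sh-Ptbp1-3d and 1.34 ± 0.217 in sh-Ptbp1-7d (SD, n = 3 each). It was below 1 in each library of 3 days and 1.53, 1.37 and 1.10 in the sh-Ptbp1-7d libraries. The ratio of TNFRSF10B to FADD was 1.86 ± 0.087 in sh-Ptbp1-3d and 5.01 ± 0.743 in sh-Ptbp1-7d. In contrast, the ratio of ligand to receptor, TNFSF10 to TNFRSF10B, was 0.281 ± 0.069 in sh-Luci-3d and 0.283 ± 0.054 in sh-Ptbp1-7d, with 0.176 ± 0.019 in sh-Ptbp1-3d. CFLAR and caspase 8 were set side by side because they compete at FADD. Their ratio was 1.44 ± 0.135, 1.59 ± 0.173 and 1.80 ± 0.068 in the 3 groups, in the order used above, and the sh-Ptbp1-7d libraries (1.73, 1.80 and 1.86) lay just above the highest library of 3 days (1.70). The decoy TNFRSF10D divided by the sum of TNFRSF10A and TNFRSF10B was 0 in 8 libraries and 0.000809 in the other one. Ratios are given without a test, and 3 libraries against 3 allow no two-sided p under 0.1 in an exact permutation test.

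**Figure D3:**
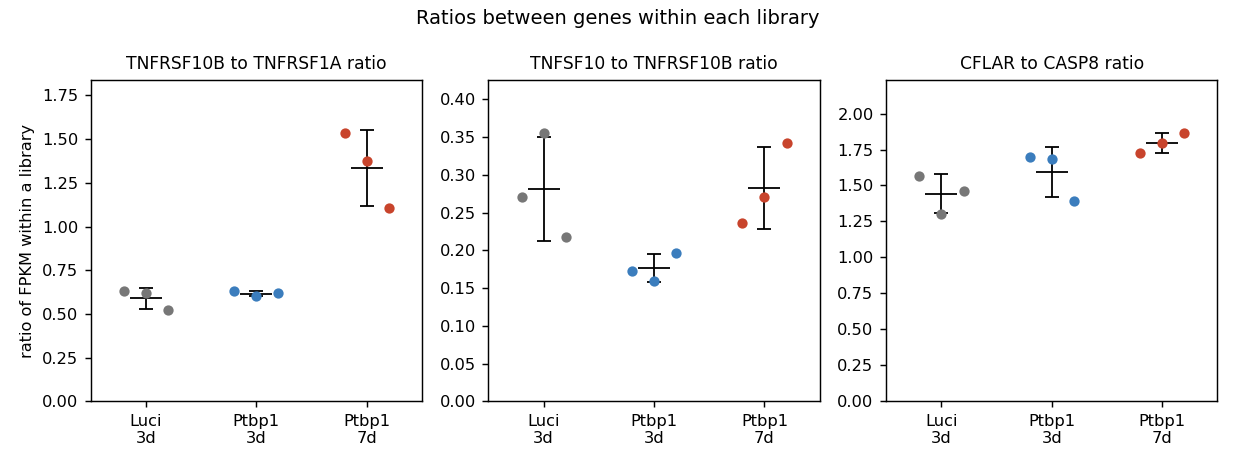
Ratios of FPKM within each library (vertical axes, from 0) for TNFRSF10B to TNFRSF1A, TNFSF10 to TNFRSF10B and CFLAR to CASP8, with 1 point per library and the mean and SD as bars. The first ratio was above 1 in the 3 sh-Ptbp1-7d libraries and below 1 in the other 6, whereas the second was lowest in sh-Ptbp1-3d and overlapped between sh-Luci-3d and sh-Ptbp1-7d.

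The rest of the extrinsic pathway was described with a list of 37 further genes, 32 of which were tested. None passed at 3 days. From sh-Ptbp1-3d to sh-Ptbp1-7d 10 rose and 2 fell, where 20.3% of all genes tested rose by the same FDR. The median difference was 0.39 on the log2 scale. Past the fold threshold 4 rose and 1 fell, where 8.31% of all genes rose. Against sh-Luci-3d 9 rose and 2 fell, with a median of 0.43, where 20.6% of all genes rose. TNFSF15 and ZBP1 count among the rises past the fold threshold, and TNFRSF10C and FAIM2 were the others over sh-Ptbp1-3d. TNFSF15 and ZBP1 reached the filter only through their level in sh-Ptbp1-7d, which favours a rise. The counts of rises in this list therefore cannot be set against the shares of all genes. LTA and CASP10 also had means below 0.1 FPKM in both groups of 3 days. They are part of the medians and did not pass the FDR over sh-Ptbp1-3d (log2 changes of 1.03 and 1.32).

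Among the other death ligands, FASLG (FAS ligand) did not exceed 0.0313 FPKM in any library and TNF did not exceed 0.0537 FPKM, and neither was tested. TNFSF15, the ligand of the death receptor TNFRSF25, was listed at 0 in all 6 libraries of 3 days and at 1.65, 1.39 and 1.18 FPKM in sh-Ptbp1-7d. It reached the filter only through sh-Ptbp1-7d, and its fold change against groups at 0 is set by the pseudocount. TNFSF15 is included in the counts of genes past the thresholds, and no p is given for it. TNFRSF25 itself went from 6.94 ± 0.973 to 7.55 ± 0.370 FPKM (SD, n = 3 each) over the same interval, with a log2 change of 0.13 (95% confidence interval -0.20 to 0.45).

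Among the genes that act beneath FADD, CASP8, the initiator caspase recruited by FADD, measured 3.97, 5.03 and 4.75 FPKM in sh-Ptbp1-3d and 6.83, 5.98 and 5.30 FPKM in sh-Ptbp1-7d, a log2 change of 0.39 that did not pass (95% confidence interval 0.07 to 0.71, adjusted p in limma = 0.0465). CASP6, an effector caspase, fell by 0.72 on the log2 scale (SE 0.088, adjusted p = 5.93e-05 in limma). DIABLO, which antagonises inhibitors of apoptosis, rose by 0.56 (SE 0.080, adjusted p = 0.000205 in limma).

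Some of the genes that shape the TNF receptor 1 complex rose and others did not pass. Of 10 ubiquitin and deubiquitin enzymes, 4 rose over sh-Ptbp1-3d, each by less than 2-fold, none fell and 6 did not pass. By the same FDR 20.3% of all genes tested rose. The 4 enzymes that rose were TNFAIP3 (A20) with a log2 change of 0.92, SPATA2 with 0.84, RBCK1 (HOIL-1) with 0.82 and BIRC2 (cIAP1) with 0.60. The adaptors TRADD and TRAF2 did not pass (log2 changes of -0.43 and 0.40). In the necroptosis list MLKL, the pore-forming effector, rose by 0.93 (SE 0.164, adjusted p = 0.000816 in limma). ZBP1, a sensor of Z-form nucleic acid, did not exceed 0.0538 FPKM in the libraries of 3 days and stood at 0.589, 1.17 and 0.823 FPKM in sh-Ptbp1-7d. It also reached the filter only through sh-Ptbp1-7d. ZBP1 is included in the counts of genes past the thresholds, and no p is given for it. RIPK3, the kinase between RIPK1 and MLKL, was listed at 0 in all 9 libraries.

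Of the genes that modulate death receptor signalling, FAIM2, an inhibitor of FAS signalling known from neurons, rose by 1.89 (SE 0.148, adjusted p = 2.48e-06 in limma), from 1.51 ± 0.042 to 5.91 ± 0.602 FPKM (SD, n = 3 each). PEA15, which binds FADD and caspase 8 through a death effector domain, fell by 1.22 on the log2 scale (SE 0.080, adjusted p = 6.91e-07 in limma). It measured 88.4, 81.8 and 85.3 FPKM in sh-Ptbp1-3d and 37.1, 38.2 and 34.1 FPKM in sh-Ptbp1-7d. PEA15 was thus above TNFRSF1A in the groups of 3 days and below it at 7 days.

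**Figure D4:**
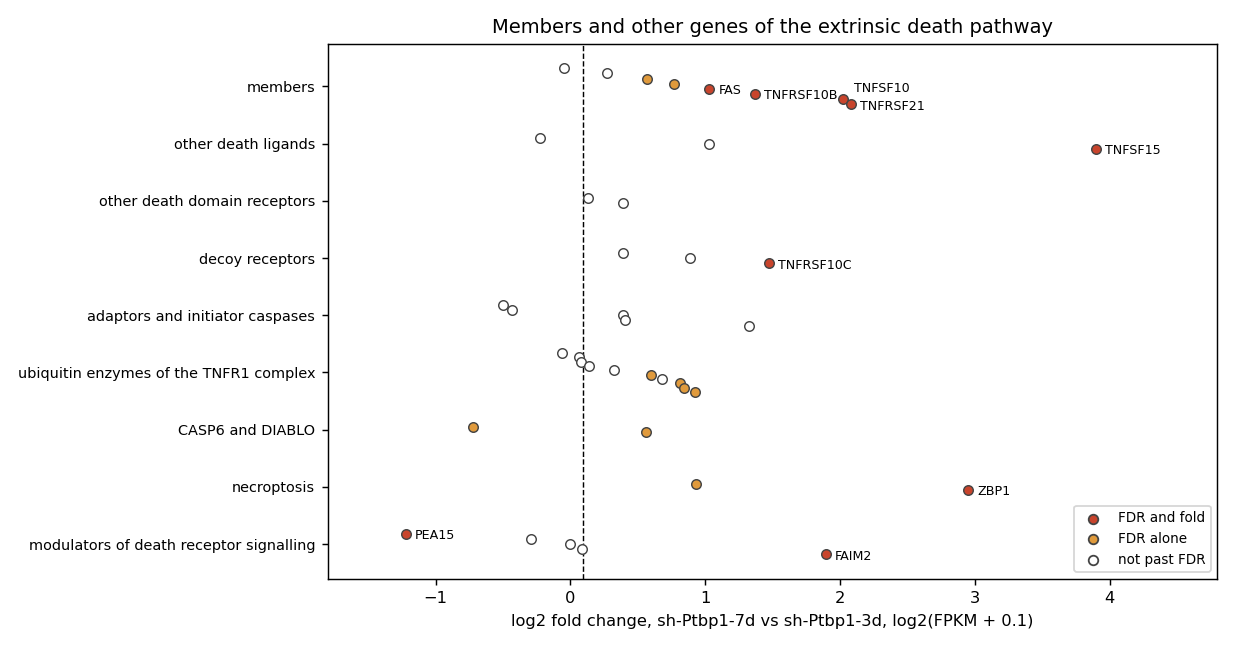
Log2 fold changes of sh-Ptbp1-7d over sh-Ptbp1-3d on the scale log2(FPKM + 0.1) (horizontal axis) for the 8 genes tested and for 32 other genes of the extrinsic pathway, by role (vertical axis), with the median of all genes tested as a dashed line. Genes past both thresholds are named, and values ran from -1.22 (PEA15) to 3.90 (TNFSF15, a value set by the pseudocount because the gene was listed at 0 at 3 days). TNFSF15, ZBP1, LTA and CASP10 had means below 0.1 FPKM in both groups of 3 days and reached the filter through sh-Ptbp1-7d.

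Gene groups outside the pathway were measured beside the rises of the receptors. From sh-Ptbp1-3d to sh-Ptbp1-7d 20.3% of all genes tested rose by the same FDR, and the median log2 fold change of all genes was 0.09. Of 20 interferon-stimulated genes, a class to which TNFSF10 is commonly assigned, 19 rose from sh-Ptbp1-3d to sh-Ptbp1-7d and none fell, with a median log2 fold change of 2.25. XAF1 rose by 6.10, OAS2 by 4.17 and IFI6 by 3.81. Of 22 p53 target genes, the class to which TNFRSF10B and FAS are commonly assigned, 7 rose and 3 fell, with a median of 0.08. BTG2 rose by 2.56, GDF15 rose by 2.32 and ZMAT3 fell by 1.28 on the log2 scale. Of 13 ATF4 and CHOP target genes, a class that also includes TNFRSF10B, 7 rose and 4 fell, with a median of 0.59. DDIT3 (CHOP) rose by 1.38, ATF3 rose by 1.07 and SLC7A11 fell by 1.82 on the log2 scale. No gene of these 3 groups passed at 3 days. The part of any of these groups in the rises was not tested.

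Receptors of the same superfamily without a death domain were few among the genes tested. Of 16, 7 were tested, 2 rose and 1 fell over sh-Ptbp1-3d, with a median of 0.03, where 20.3% of all genes tested rose. TNFRSF14 rose by 2.54 and TNFRSF12A, the TWEAK receptor, fell by 1.10 on the log2 scale. Of 12 other ligands of the family 5 were tested, 1 rose and 1 fell, with a median of -0.04. TNFRSF1B, the second TNF receptor, was listed at 0 in all libraries.

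The cells were described with marker genes. Of 8 genes known from U251 and other glioma cells all 8 were tested. Their summed level was 7112 to 7758 FPKM in sh-Ptbp1-3d and 2297 to 2468 FPKM in sh-Ptbp1-7d. Most of it came from VIM (means of 4381 and 1169 FPKM) and S100A6 (2729 and 866 FPKM). Over this interval 3 fell past both thresholds, among them VIM by 1.91 and S100A6 by 1.67 on the log2 scale. The share of all genes that fell is not given, so this count cannot be set against it. Of all genes tested, 1.52% had a lower log2 fold change than VIM and 2.20% a lower one than S100A6. TNC rose by 1.61, and 4 of the 8 did not pass the FDR. Among these was GFAP, whose level was low in all groups. Its means were 0.347 FPKM in sh-Luci-3d, 0.586 in sh-Ptbp1-3d and 0.454 in sh-Ptbp1-7d. Of 15 markers of blood and immune cells 3 were tested and 7 were at 0 in all libraries. Their sum was 11.0 to 11.6 FPKM in sh-Ptbp1-3d and 16.2 to 19.2 FPKM in sh-Ptbp1-7d, mostly from CD68, a lysosomal gene that rose by 0.63. The part of these shifts in the results was not tested.

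Over the 9 libraries, the levels of the 6 genes that rose moved together on the log2 scale. Pearson's r was between 0.802 (CFLAR with FAS) and 0.985 (TNFSF10 with FAS), and RIPK1 and TNFSF10 had 0.966. FADD was at -0.329 to 0.307 with the other 7 genes. The points share the 3 groups and their scaling, so these values mostly restate the difference between 3 and 7 days. The 5 genes most like TNFRSF21 by this measure, among 11339 genes whose mean reached 1 FPKM, were ACVR2A (0.9983), LOX (0.9963), MRAP2 (0.9961), TOX (0.9958) and ZDHHC9 (0.9956). ACVR2A, for example, was at a mean of 1.39 FPKM after 3 days of knockdown and of 7.64 FPKM after 7. Of the other 7 genes tested, TNFRSF10B was the most like TNFRSF21, with 0.980.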

How the data were processed

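The authors sequenced the libraries, compared the reads with a reference and deposited FPKM values per gene and library. The submitters' processing notes name HISAT2 and GRCh38, and the quantifier's settings and the annotation are not given in the sources used here. The authors also deposited a table of another kind, the coordinates of 2363 loci assembled from the reads, which was used to look for loci beside the 10 genes. FPKM values are not counts, the depth behind them is unknown, and counting error was given no interval.

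Samples were grouped by their labels. Genes averaging 0.1 FPKM or more were kept (15551), 0.1 was added, and the log2 values were analysed in limma 3.58.1 (R 4.3.3) with an intensity trend and all 9 libraries in 1 model. The Benjamini-Hochberg adjustment ran over these genes. FDR limits were 0.05 at 3 days and 0.01 for both comparisons with sh-Ptbp1-7d, and the fold limit was 2. The fit was also run on simulated data, but the pass mark was lowered after a result was seen, so this run is no independent check. Positions are from GENCODE v29. Python 3.11.15 with matplotlib 3.10.9 drew the figures.

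The genes and lists were chosen with earlier results of these data known. The rule named the 10 genes, PTBP1, CASP8, the 5 genes most like the one that moved most, and, of each other list, at most 3 genes past both thresholds with the largest changes. FASLG, TNF, LTA, TNFRSF25, TNFRSF11B, CASP6, CASP10, DIABLO, TRADD, TRAF2, TNFAIP3, SPATA2, RBCK1, BIRC2, MLKL, RIPK3, FAF1, CD68 and TNFRSF1B lie outside this rule and were named after their values were seen. Of the pathway list, 2 genes are not reported here and were left out of its counts. The ratios with TNFRSF10B to TNFRSF1A, FADD, TNFSF10 or TNFRSF10C were added in the same way, as was a correction for GC content and length. Alternatives were pseudocounts of 1 and 0.01, no filter or one at 1 FPKM, scaling by TPM, median ratios or quantiles, no trend, a replicate block, no assembled loci, a fit of the compared groups alone, the 2 FDR limits exchanged, and 1 library left out in turn.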

Additional observations from a re-analysis of the deposited data

How the results depend on the processing

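Each of the 8 genes was refitted under 21 alternatives. In both comparisons with sh-Ptbp1-7d, TNFSF10, TNFRSF10B and TNFRSF21 passed both thresholds in all 21, and FAS and RIPK1 passed the FDR in all 21. Leaving out a library moved the number of the 8 genes past the FDR at 3 days between 0 and 2. The latter was without sh-Luci-3d replicate 3, where 1.33% of all genes were lower by the FDR. Raising the filter to a mean of 1 FPKM reduced the pathway genes past both thresholds from 5 to 2 in each comparison with sh-Ptbp1-7d (FAIM2 and PEA15), because it removed TNFSF15, ZBP1, TNFRSF10C and TNFRSF11B from the genes tested. TNFRSF10C was among the 5 only over sh-Ptbp1-3d. TNFRSF11B was among them only over sh-Luci-3d, with a log2 change of 1.14 (adjusted p = 0.00704 in limma). A pseudocount of 1 reduced the pathway genes past both thresholds to 3 in each (FAIM2, PEA15 and TNFSF15), since it shrinks the changes of genes with little expression.

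Signs turned for values near 0, and the cause was not tested. At 3 days, leaving out a library gave log2 fold changes from -0.046 to 0.039 for TNFRSF1A, from -0.16 to 0.050 for TNFRSF21 and from -0.097 to 0.12 for CFLAR, and TPM gave -0.0048 for CFLAR. For FADD over sh-Ptbp1-3d TPM gave 0.051 and the correction for GC content and length 0.032. Over sh-Luci-3d the FADD value of 0.03 became -0.066 with median-ratio scaling, -0.030 with quantile normalization and -0.015 to 0.091 when a library was left out.

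Replicate numbers recur in the 3 groups, but the deviations of the 9 pairs of libraries with the same number correlated by only -0.019 to 0.058, so a number was not taken to mark a pair. With the replicate block, 4 and 6 of the 8 genes passed both thresholds and the FDR over sh-Ptbp1-3d, 3 and 6 over sh-Luci-3d, and 0 at 3 days, as without it. Depth is unknown, so it cannot be said how far the genes listed at 0 were below detection.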

Other observations

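An assembled locus without a gene symbol lay 396 bp from TNFRSF10B on the same strand and spanned 5458 bp. It was at 0.739, 0.876 and 0.876 FPKM in sh-Luci-3d, at 0.854, 1.06 and 0.946 FPKM in sh-Ptbp1-3d and at 0.610, 0.877 and 0.398 FPKM in sh-Ptbp1-7d. Unlike TNFRSF10B, it was not higher in the sh-Ptbp1-7d libraries, which overlapped with both groups of 3 days or lay below them.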
